A study of Mus musculus with 17 samples.

Results

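The clustered histone genes were taken as every gene whose array name begins with Hist1h, Hist2h, Hist3h or Hist4h, each read by its brightest probe. They numbered 49 of the 34797 gene names on the array, with 55 probes. RNA came from cells that the labels call intestinal stem cells, of LGR5-GFPki mice, which carry a green fluorescent protein knocked in at Lgr5. Cells were sorted by flow cytometry as LGR5hi or LGR5lo, 3 h after 12 Gy of gamma-irradiation or without irradiation. The groups were non-irradiated LGR5hi (n = 4 arrays), irradiated LGR5hi (n = 4), non-irradiated LGR5lo (n = 5) and irradiated LGR5lo (n = 4). All 4 groups carried the same reporter allele. The labels give sex but not age, and do not say whether an array held 1 animal or several, so p-values measure the spread between these samples. Values are on a log2 scale, as Cy3 signal relative to the 75th percentile of that array, so a level of 0 is the 75th percentile itself.

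Histones are the proteins around which DNA is wound. H3 and H4 form the inner part of the nucleosome, H2A and H2B complete it, and H1 sits on the linker DNA between nucleosomes. Most clustered histone genes are made during S phase, when new DNA needs new histones. Their mRNAs usually end in a conserved stem-loop, bound by SLBP, rather than in a poly(A) tail, and they are degraded quickly when DNA synthesis stops. Some of these genes also make longer, polyadenylated transcripts. In the intestine the cycling cells lie in the crypts, where Lgr5 marks stem cells at the base. The labelling kit named in the labels primes from poly(A).

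The stem-loop was present in the probes of 6 genes, which are shown because they mark the end of the processed histone mRNA. Each line gives 30 bases of the probe, in the sense of the mRNA, with the 16-base stem-loop in capitals:
Hist1h3a: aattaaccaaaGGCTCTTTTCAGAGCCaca
Hist1h3g: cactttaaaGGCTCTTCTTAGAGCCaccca
Hist1h3i: ataacaaaaGGCTCTTTTCAGAGCCccctc
Hist1h4m: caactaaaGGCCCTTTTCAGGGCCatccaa
Hist2h2aa1: taaaaaGGCTCTTTTCAGAGCCacccactg
Hist2h2bb: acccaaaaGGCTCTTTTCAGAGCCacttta
The pattern searched was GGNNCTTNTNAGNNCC on the probe strand, and 7 of the 55681 non-control probes of the array held it (0.0126%). In Hist2h2aa1 the probe runs 38 bases past the stem-loop, whereas the other 5 end 3 to 6 bases after it.

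Other probes start further into the transcript, some of them far beyond the usual end of a histone mRNA. A start 500 or more bases into the transcript (1000 for the longer H1 mRNAs) is called distal here, a limit set after values were seen, and other probes are called proximal. Of the 48 tested genes, 13 had a distal probe. The class rests on the start alone, so the Hist2h2aa1 probe, which starts at 488 and passes the stem-loop, counts as proximal. A poly(A) signal, AATAAA or ATTAAA, was found in 2 of the 14 distal probes, with the untested Hist1h1d included, against 13.7% of all array probes. Both are shown with the signal in capitals:
Hist1h2be: gtactgttcattATTAAAgcattcctgatt
Hist3h2ba: gttcataatggtattAATAAAtttggttca

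Many members are near copies of each other. The 60-base probes of 4 H2A genes start at the same point of their transcripts, and capitals mark the bases that differ from the Hist1h2af probe:
Hist1h2af: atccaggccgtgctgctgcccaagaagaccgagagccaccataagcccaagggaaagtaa
Hist1h2ak: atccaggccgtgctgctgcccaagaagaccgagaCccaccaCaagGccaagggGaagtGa
Hist1h2an: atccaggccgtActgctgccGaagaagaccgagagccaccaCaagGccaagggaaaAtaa
Hist2h2aa2: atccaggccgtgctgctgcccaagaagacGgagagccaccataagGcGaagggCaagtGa
Each differs from the first at 5 of 60 bases. The files list the probe of 13 of the 49 genes under more than 1 gene (5 H2A, 4 H4, 2 H2B and 2 H3), so the signal of those genes cannot be assigned to a single copy.

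Of the 49 genes, 48 passed the filter on dim probes, and 45 of these were well above background on all 16 arrays that carry the flag. Hist1h1d was not tested, being above background on 1 of 16 arrays. Lgr5 itself was 3.17 ± 0.28 log2 higher in LGR5hi than in LGR5lo cells without irradiation (limma, adjusted p = 3.24e-06). Cdkn1a, a p53 target that halts the cycle, rose with irradiation by 4.87 ± 0.30 in LGR5hi and 2.88 ± 0.28 in LGR5lo cells. Spots well above background made up 58.9% to 73.9% on 15 arrays. Non-irradiated LGR5lo replicate 2 stood apart at 95.6%, and the main counts and medians that use it are given without it too.

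In LGR5hi cells, 27 of 48 histone genes were lower after irradiation and 1 was higher. Over all 27637 genes tested, 8.01% were called lower and 5.69% higher, which is 13.7% in either direction. The median log2 difference of the 48 genes was -0.83, against -0.06 over all genes. The irradiated arrays lay wholly below the non-irradiated ones for 32 members, against 13.4% of all genes, and wholly above for 1, against 8.8%. Without non-irradiated LGR5lo replicate 2, 34 were called lower and 1 higher, where 10.8% of all genes were called lower and 7.54% higher. Within slide 1 the median was -0.84 and within slide 2 it was -0.79. Calls fell on every histone type: 3 of 5 H1, 5 of 14 H2A, 9 of 12 H2B, 3 of 8 H3 and 7 of 9 H4 genes were lower. The type medians were -1.31 for H1, -0.63 for H2A, -1.20 for H2B, -0.63 for H3 and -0.87 for H4. With normexp background correction those of H2B and H3 became -0.78 and -0.37, with H4 at -0.75 and all genes at 0.12.

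In LGR5lo cells, 5 of 48 were lower and 1 was higher, where 2.95% of all genes were called lower and 4.29% higher (7.23% in either direction). The median difference was -0.43, against -0.15 over all genes, and it was -0.54 within slide 1 and -0.45 within slide 2. Without LGR5lo replicate 2 of the non-irradiated group 8 were called lower and 1 higher, where 3.62% of all genes were called lower and 4.51% higher. The median was then -0.45 (all genes -0.11). Without that array 12 members did not overlap downwards, but a smaller group makes non-overlap easier for any gene. The share over all genes was not counted for this set, so the 12 are not read as a result about histones. The type medians without that array were -0.57 for H1, -0.28 for H2A, -0.71 for H2B, -0.25 for H3 and -0.45 for H4. The irradiated arrays lay wholly below for 9 members, against 5.19% of all genes, and wholly above for 1, against 5.88%. The medians were -0.71 for H1, -0.76 for H2B and -0.39 for H4. Those for H2A and H3 were -0.22 and -0.21, close to the shift of all genes, and both turn positive (0.05 and 0.06) when arrays are centred on their median, where all genes shift by 0.12. Relative to all genes they lay at -0.07 and -0.05, and at -0.32 and -0.31 with quantile normalization. Genes lower in both sorts were Hist1h1a, Hist1h2bq, Hist1h4i and Hist2h2ab. Hist1h2be was called lower in LGR5lo cells and not in LGR5hi cells. In LGR5lo cells the call on Hist2h2ab, whose groups overlap, was lost under 8 of the 32 settings and that on Hist1h2be under 6, quantile normalization and median centring among them.

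Although 41 of 48 members had the more negative difference in LGR5hi cells, no member passed the test of the difference between the 2 effects. By limma, 0 of 48 were called there, 6 had an unadjusted p under 0.05, against 6.82% of all genes, and the smallest adjusted p was 0.373, for Hist1h2bc. Over all genes 10 were called (0.0362%). The plot of differences by histone type sets both sorts side by side.

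**Figure D1:**
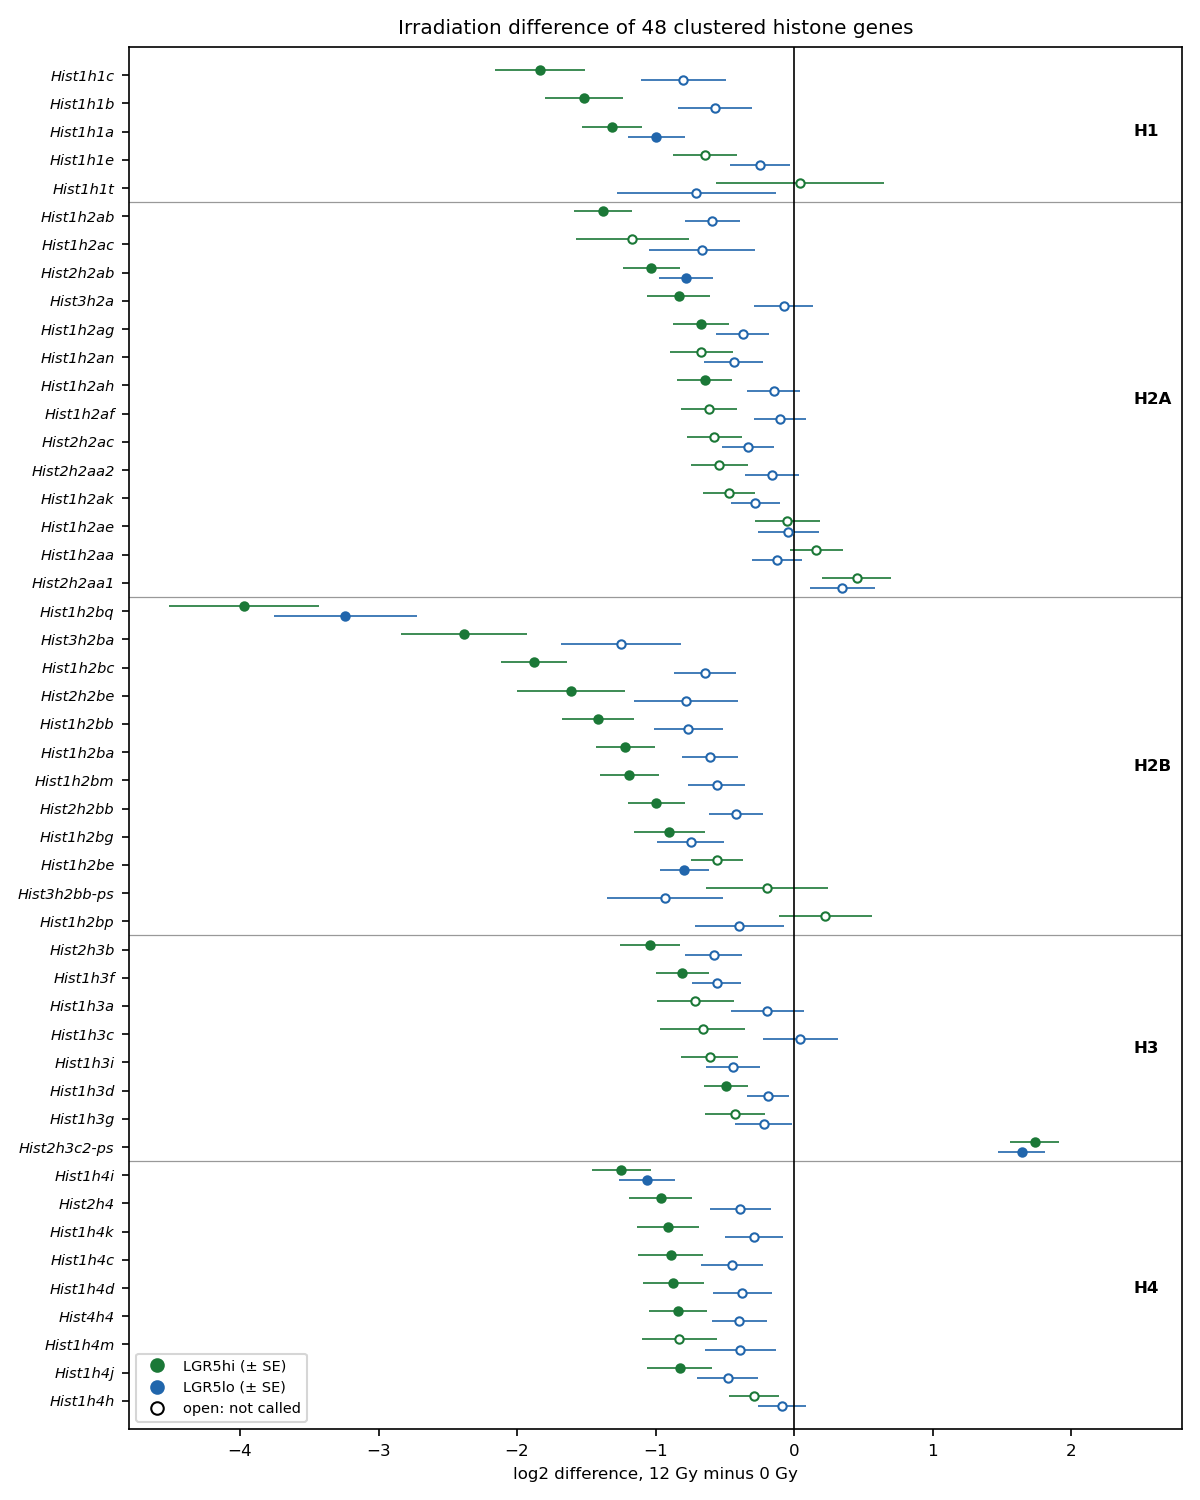
Log2 difference, 12 Gy minus 0 Gy, for the 48 tested histone genes, grouped by type; green is LGR5hi, blue is LGR5lo, whiskers are standard errors of the limma fit and filled points are called. Of the green points 27 are filled below 0 and 1 above, while 5 blue points are filled below 0.

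The linker histones H1 bind the entry and exit of nucleosomal DNA. Hist1h1c (H1f2 in RefSeq) had values of 1.97, 1.21, 1.92 and 0.83 in non-irradiated LGR5hi cells and -0.51, 0.12, -0.56 and -0.47 after irradiation. In LGR5lo cells it ran from 1.24 to 2.48 without and from 0.55 to 1.71 with irradiation. The LGR5hi groups did not overlap and the LGR5lo groups did. The difference was -1.84 ± 0.32 in LGR5hi (limma, adjusted p = 0.000983) and -0.80 ± 0.31 in LGR5lo cells (adjusted p = 0.134). Its probe lies at chr13:23832018-23832077 (mm9, plus strand) and is distal. Hist1h1b (H1f5) went from 5.92, 5.08, 5.23 and 4.99 to 4.25, 3.87, 3.45 and 3.56 in LGR5hi cells, with no overlap, a difference of -1.52 ± 0.28. Hist1h1a (H1f1) was lower in both sorts, by -1.31 ± 0.22 and -0.99 ± 0.21. Hist1h1e differed by -0.64 ± 0.23 and was not called (adjusted p = 0.0838). Hist1h1t, the testis H1, had a mean of -1.66 ± 0.19 (SD, n = 4) in non-irradiated LGR5hi cells and showed no called difference.

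H2B pairs with H2A in the nucleosome. Hist1h2bq was at -2.17, -3.27, -1.99 and -2.48 in non-irradiated LGR5hi cells and at -7.43, -4.65, -6.65 and -7.07 after irradiation. In LGR5lo cells it went from between -2.80 and -1.42 to between -5.98 and -4.37. Neither pair of groups overlapped. The differences were -3.97 ± 0.54 in LGR5hi (limma, adjusted p = 0.000106) and -3.24 ± 0.51 in LGR5lo cells (adjusted p = 0.000932). The probe was well above background on 1 of 4 irradiated LGR5hi arrays and 3 of 4 irradiated LGR5lo arrays, against all flagged arrays of both non-irradiated groups, so the size of these differences rests in part on signal near background. It starts 1935 bases into the transcript, at chr13:21929214-21929273 (mm9, plus strand) and the files list it for Hist1h2br as well, so which copy it reads is uncertain.

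Hist1h2bc (H2bc4) fell in LGR5hi cells from 4.86, 4.52, 4.81 and 4.43 to 2.38, 2.88, 3.05 and 2.79, without overlap, by 1.88 ± 0.24 on the log2 scale (limma, adjusted p = 5.60e-05). In LGR5lo cells it ran from 4.36 to 5.55 without and from 4.11 to 4.72 with irradiation, groups that overlap, and the difference of -0.64 ± 0.23 was not called. Hist3h2ba (H2bu2) and Hist2h2be (H2bc21), both singled out after their values were seen, differed by -2.38 ± 0.46 and -1.61 ± 0.39 in LGR5hi cells. Hist3h2ba went from -3.24, -4.33, -3.17 and -4.44 to -7.24, -5.95, -5.27 and -6.24, and was above background on 1 of 4 irradiated LGR5hi arrays, so its size too rests on signal near background. Hist2h2be went from 0.19, -0.20, 0.74 and -0.50 to -1.77, -0.90, -1.55 and -1.99. In both genes the LGR5hi groups did not overlap, and in LGR5lo cells neither was called. Both LGR5hi calls were lost under normexp background correction. Of the H2B genes with proximal probes, 4 of 5 were lower in LGR5hi cells: Hist1h2bb (-1.41 ± 0.26 log2), Hist1h2ba (-1.22 ± 0.21), which encodes the testis H2B, Hist1h2bm (-1.19 ± 0.21) and Hist2h2bb. Hist1h2bg differed by -0.90 ± 0.25 and was called. Hist1h2bp (0.22), Hist1h2be (-0.55) and the pseudogene Hist3h2bb-ps (-0.19) were not called in LGR5hi cells. In LGR5lo cells Hist1h2be differed by -0.79 ± 0.18 (limma, adjusted p = 0.0119).

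**Figure D2:**
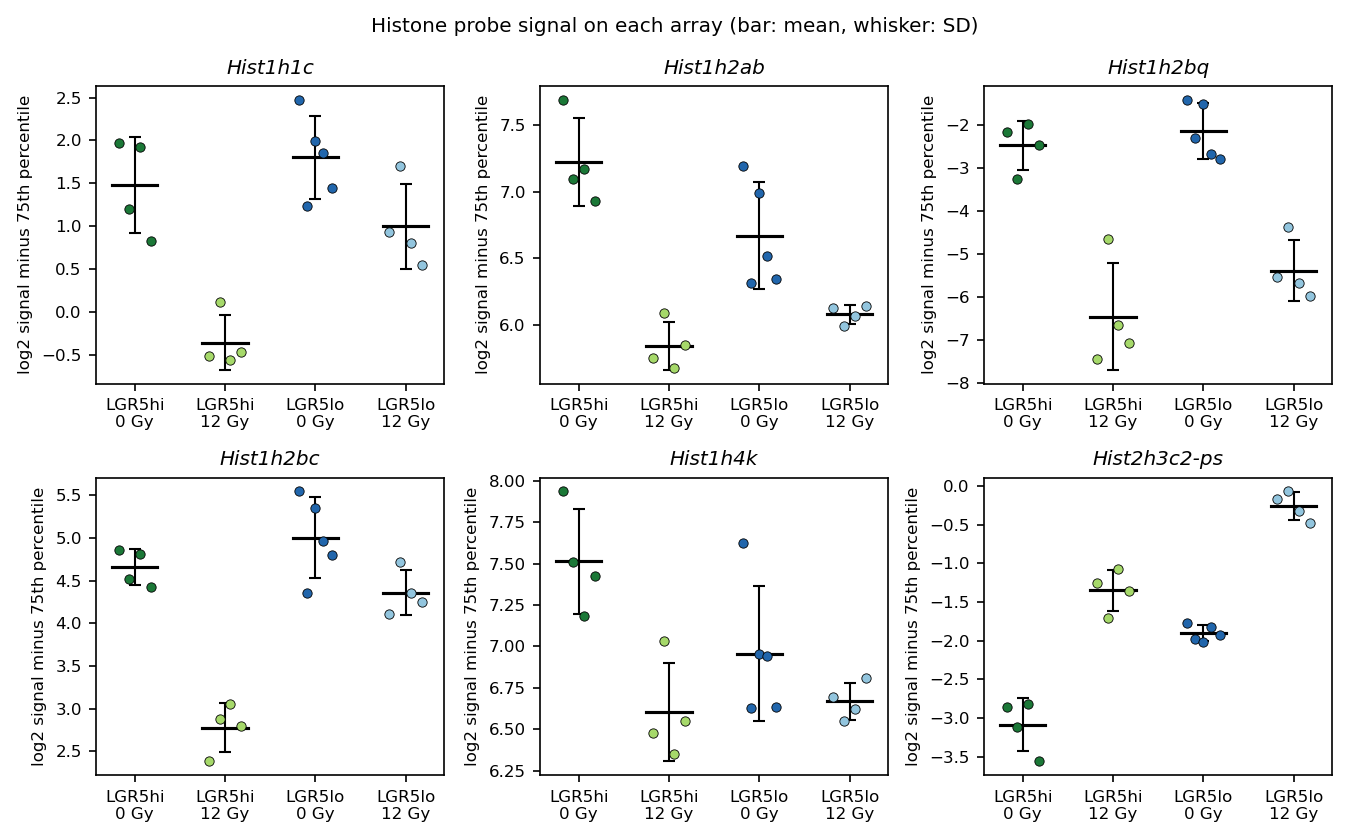
Log2 level, relative to the array's 75th percentile, of 6 histone probes on each array, by group; points are arrays in replicate order, bars are means and whiskers SD. Hist1h2bc falls in irradiated LGR5hi cells to between 2.38 and 3.05, below all other groups, while Hist2h3c2-ps is higher after irradiation in both sorts.

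Among H2A genes the median difference in LGR5hi cells, -0.63, was close to that of H3 and smaller in size than those of H1, H2B and H4. With quantile normalization it was -0.74, against -0.57 for H3 and -0.79 for H4, so this order depends on the scaling. Hist1h2ab (H2ac4) was at 7.69, 7.10, 7.17 and 6.93 without and 5.75, 6.09, 5.67 and 5.85 with irradiation, groups that do not overlap, with a difference of -1.38 ± 0.21 (limma, adjusted p = 0.000276). In LGR5lo cells the range went from 6.31 to 7.19 down to 5.99 to 6.14, again without overlap, and the difference of -0.59 ± 0.20 missed the threshold (adjusted p = 0.0898). Hist2h2ab (-1.03 ± 0.21 log2), Hist3h2a (-0.83 ± 0.23), Hist1h2ag (-0.67 ± 0.20) and Hist1h2ah (-0.65 ± 0.20) were called lower too. Of these, Hist1h2ah had groups that overlap. Hist1h2ag and Hist1h2ah are near the threshold: they lose their call under 10 and 18 of the 32 alternative settings. Hist1h2af, one of the near copies printed above, was at 9.53, 9.24, 8.94 and 9.02 and then 8.62, 8.86, 8.32 and 8.48. Its difference of -0.61 ± 0.20 was not called (adjusted p = 0.0527), nor were those of Hist1h2ak (-0.47), Hist1h2an (-0.67) and Hist2h2aa2 (-0.54). Hist2h2aa1, whose probe extends past the stem-loop, had a difference of 0.45 ± 0.25 (adjusted p = 0.317) and is listed at the same locus as Hist2h2aa2.

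H3 carries many of the modified tail residues of chromatin. Hist2h3b (H3c13) was at 4.49, 3.86, 3.89 and 4.10 in LGR5hi cells and 2.97, 3.36, 2.67 and 3.17 after irradiation, with no overlap and a difference of -1.04 ± 0.22 (limma, adjusted p = 0.0037). Hist1h3f (-0.81 ± 0.19 log2) and Hist1h3d (-0.49 ± 0.16) were also lower. The call on Hist1h3d is lost under 21 of the 32 settings. Hist1h3a, with a stem-loop probe, differed by -0.71 ± 0.28 and was not called. For Hist1h3c, irradiated LGR5hi replicate 2 carried an outlier flag and was dropped, leaving n = 3 there.

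The pseudogene Hist2h3c2-ps was the exception. Its values rose from -2.86, -3.11, -2.81 and -3.56 to -1.26, -1.71, -1.07 and -1.36 in LGR5hi cells, and from between -2.02 and -1.77 to between -0.48 and -0.07 in LGR5lo cells. Neither pair of groups overlapped. The rises were 1.74 ± 0.18 (limma, adjusted p = 7.80e-06) and 1.64 ± 0.17 (adjusted p = 1.82e-05). The probe lies at chr3:96042034-96042093 (mm9, minus strand), 957 bases into a cDNA clone, and it matched no gene in RefSeq.

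H4 is among the most conserved histones. In LGR5hi cells 7 of 9 were lower and all 9 differences lay between -1.25 and -0.29. Hist1h4k (H4c12) was at 7.94, 7.51, 7.18 and 7.42 without and 6.48, 7.03, 6.35 and 6.55 with irradiation. The groups did not overlap and the difference was -0.91 ± 0.22 (limma, adjusted p = 0.0113). In LGR5lo cells the same probe ran from 6.63 to 7.62 and then 6.55 to 6.81, with overlap. Hist2h4 (-0.96 ± 0.23 log2), Hist1h4c (-0.89 ± 0.24), Hist4h4 (-0.84 ± 0.21), Hist1h4j (-0.83 ± 0.23) and Hist1h4d were lower as well. Hist1h4i was lower in both sorts, by -1.25 ± 0.21 and -1.06 ± 0.20, through a distal probe. Its other probes gave -1.17 and 0.01 in LGR5hi cells and 0.23 and -0.28 in LGR5lo cells, so its probes disagree, and both calls were lost with their mean. The second probe of Hist2h4 gave 0.03, and there too the call was lost. The probes of Hist1h4k agreed in direction (-0.91 and -0.75), as did those of Hist1h2ak (-0.47 and -1.22).

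The genes lie in 4 genomic clusters, and falls in LGR5hi cells were found in each. On chromosome 13, which holds the Hist1 cluster, 19 of 35 genes were lower, with a median of -0.81. On chromosome 3 (Hist2) 5 of 9 were lower and 1 was higher, with a median of -0.96. On chromosome 11 (Hist3) 2 of 3 were lower, and on chromosome 6 the single gene, Hist4h4, was lower. Of the 6 genes whose probes hold the stem-loop, only Hist2h2bb was called lower, at -0.995 ± 0.205 (limma, adjusted p = 0.00334), and the median of the 6 was -0.66. Among the 13 genes whose probe is listed under several names, 9 were lower, against 18 of the other 35.

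The median of each histone type, with each gene centred on its mean over all arrays, is drawn for each array. Over all 48 genes this median in LGR5hi cells lay between 0.23 and 0.80 without irradiation and between -0.61 and -0.03 with it. In LGR5lo cells the ranges were -0.15 to 0.56 and -0.39 to -0.21. The groups did not overlap in either sort. In LGR5lo cells they came close, at -0.15 and -0.21, a gap smaller than the shift of all genes there (-0.15). Such array medians were not taken over all genes. Replicate 1 had the highest value of both non-irradiated groups (0.80 and 0.56), and replicate 2 the highest of irradiated LGR5hi cells (-0.03).

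**Figure D3:**
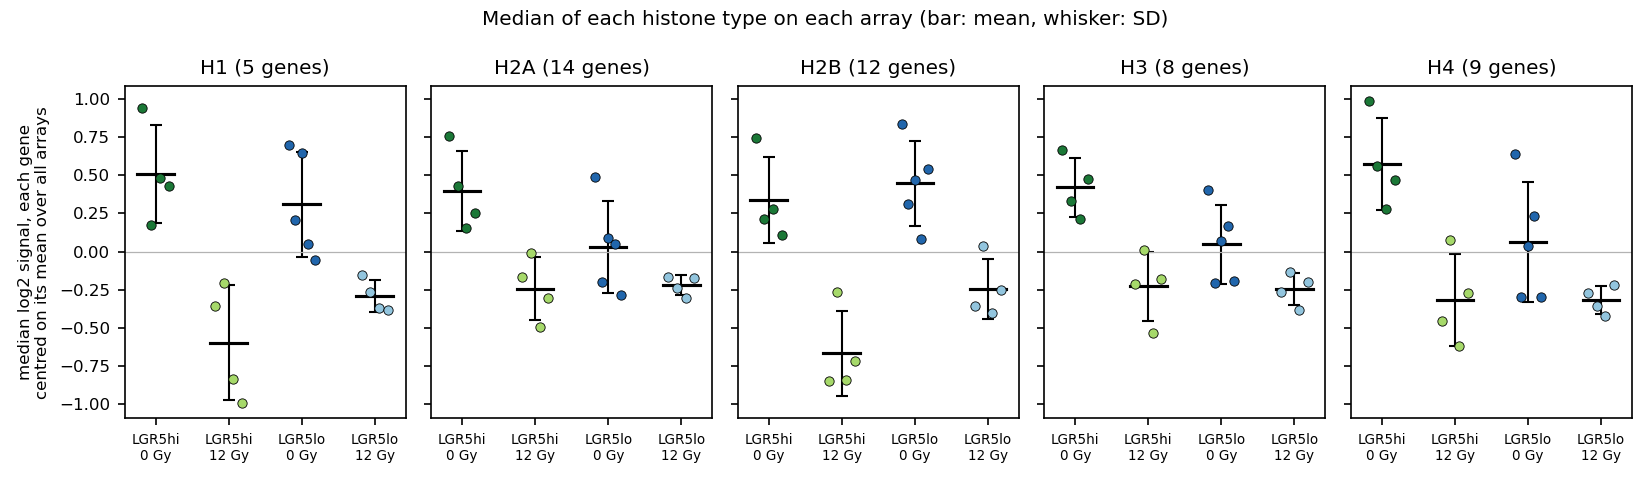
Median of the members of each histone type on each array, after each gene was centred on its mean over all arrays (log2), by group; bars are means and whiskers SD. For H2B the irradiated LGR5hi arrays lie between -0.85 and -0.26, below every non-irradiated array of either sort.

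Without irradiation, LGR5hi and LGR5lo cells were compared to see whether histone mRNA differed between the sorts. The median LGR5hi minus LGR5lo difference was 0.29, against -0.06 over all genes, with 34 of 48 members above 0. It was 0.41 within slide 1 and 0.13 within slide 2, where all genes lay at 0.08 and -0.04. With quantile normalization it was 0.23, against 0.11 over all genes, and 18 members lay below the latter. Relative to all genes the members thus lay at 0.35 in the main fit and 0.12 with quantile normalization. H4 genes were above 0 in 9 of 9 cases with a median of 0.49. Medians were 0.41 for H1, 0.29 for H2A and 0.38 for H3. H2B went the other way, with a median of -0.30 and 8 of 12 genes below 0. With quantile normalization that of H2B was 0.03, against 0.11 over all genes. By limma only Hist2h3c2-ps was called, lower in LGR5hi by 1.18 ± 0.17 (adjusted p = 0.000277), where 4.78% of all genes were called lower and 5.49% higher (10.3% in all). The LGR5hi arrays lay wholly below for 2 members, against 4.82% of all genes, and wholly above for none, against 5.84%. An unadjusted p under 0.05 was found for 19 of the 48 members and for 25.1% of all genes. The call on Hist2h3c2-ps was lost with quantile normalization, here and at 12 Gy. With same-numbered sorts as a random block, 4 were called, while calls over all genes rose from 2837 to 4674. The 4 members were Hist1h2ab and Hist1h3a, higher in LGR5hi, and Hist2h2aa1 and Hist2h3c2-ps, lower. Leaving out non-irradiated LGR5lo replicate 1, the array with the highest histone median of its group, gave 13 calls, 12 of them higher in LGR5hi. Calls over all genes rose too, from 2837 to 4131, with 8.89% then called higher. Without non-irradiated LGR5lo replicate 2 there were 2 calls, where 4.63% of all genes were called higher and 5.39% lower. The median was then 0.23, against 0.0018 over all genes, with 35 members above 0.

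After 12 Gy the median difference between the sorts was -0.04, against 0.05 over all genes, and its sign differed between slide 1 (0.07) and slide 2 (-0.19). By limma 4 members were lower in LGR5hi cells and none was higher, where 4.17% of all genes were called lower and 2.08% higher (6.25% in all). They were Hist1h2bc (-1.58 ± 0.24), Hist1h1c (-1.35 ± 0.32), Hist2h3c2-ps (-1.09 ± 0.18) and Hist3h2ba (-1.76 ± 0.46, above background on 1 of 4 LGR5hi arrays), and their groups did not overlap. The LGR5hi arrays lay wholly below for 6 members, against 10.2% of all genes, and wholly above for 1, against 11.1%. With the same-numbered sorts as a random block 6 were called, Hist1h2bg and Hist2h2be being added. Over all genes that setting called 1290 higher and 1771 lower, against 574 and 1152 in the main fit. Without irradiated LGR5hi replicate 1, or without irradiated LGR5lo replicate 2, only Hist1h2bc and Hist2h3c2-ps were called. Hist3h2ba, a dim probe, turned to 0.15 under another background correction. Type medians were -0.25 for H1, -0.03 for H2A, -0.39 for H2B (10 of 12 below 0), 0.01 for H3 and 0.01 for H4. With normexp background correction that of H2B turned to 0.07, where all genes lay at 0.23.

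Goblet, enteroendocrine and tuft cell markers moved with these sort comparisons. Without irradiation 7 of 8 goblet, 11 of 11 enteroendocrine and 8 of 8 tuft markers were lower in LGR5hi cells, and 13 of 16 LGR5 stem cell markers were higher. Of all genes, 4.78% were called lower and 5.49% higher in that comparison. The summed goblet signal, in multiples of the array's 75th percentile, was 560 to 817 in non-irradiated LGR5hi and 1697 to 4257 in LGR5lo cells (2502 to 4257 without replicate 2), and the enteroendocrine sum 28.2 to 66.2 and 483 to 659. After irradiation the enteroendocrine sums were 32.3 to 42.4 and 600 to 1003. Stromal and endothelial markers summed to 0.790 to 0.978 in non-irradiated LGR5hi and 3.07 to 4.77 in LGR5lo cells. With irradiation itself none of the 8 goblet or 8 tuft markers was called in either sort by limma, but other lists held calls. Of 11 enteroendocrine markers 2 were higher in LGR5hi, and 2 were higher and 1 lower in LGR5lo cells. Of 7 Paneth markers 1 was higher in LGR5hi cells, and the list's medians were 0.51 and 0.75 in the 2 sorts. Of 11 leukocyte markers 1 was higher in LGR5hi, and 1 was higher and 2 lower in LGR5lo cells. Of 4 erythrocyte markers 1 was lower in LGR5hi cells, and of 11 enterocyte markers 1 was lower there. Over all genes 5.69% were called higher and 8.01% lower in LGR5hi, and 4.29% and 2.95% in LGR5lo cells. The enterocyte share, 9.09%, is near the 8.01%, and 1 call in lists this short is not read as a change of a cell type. The stromal and endothelial sum in LGR5lo cells went from between 3.07 and 4.77 to between 5.79 and 8.83, with 1 of 6 markers called higher. The median log2 difference of the 6 was -0.43, so the sum and the typical marker went opposite ways. In bulk RNA, fewer cells of a type and less RNA per cell cannot be told apart. The part of these cells in the histone values was not tested.

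Split by probe position, the members behaved differently between the sorts, as a description only. Without irradiation 32 of 35 genes with a proximal probe lay above 0 (median 0.41) and 11 of 13 with a distal probe lay below 0 (median -0.32). Without non-irradiated LGR5lo replicate 2 these were 32 of 35 (0.35) and 10 of 13 (-0.35), Hist1h2ac changing sign. After 12 Gy all 4 calls were distal, and the medians were -0.0050 for proximal and -0.75 for distal probes. Of the 13 distal probes 7 were of H2B genes. With normexp background correction the 12 Gy median of all 12 H2B genes turned from -0.39 to 0.07, with all genes at 0.23. The split by position was not repeated with that correction. With irradiation in LGR5hi cells, 19 of 35 proximal and 8 of 13 distal members were lower, with medians of -0.71 and -1.17. Of the distal probes 5 start between 505 and 574 bases, close to the limit. Transcript ends were not examined, and the part of transcript form or cell content was not tested.

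**Figure D4:**
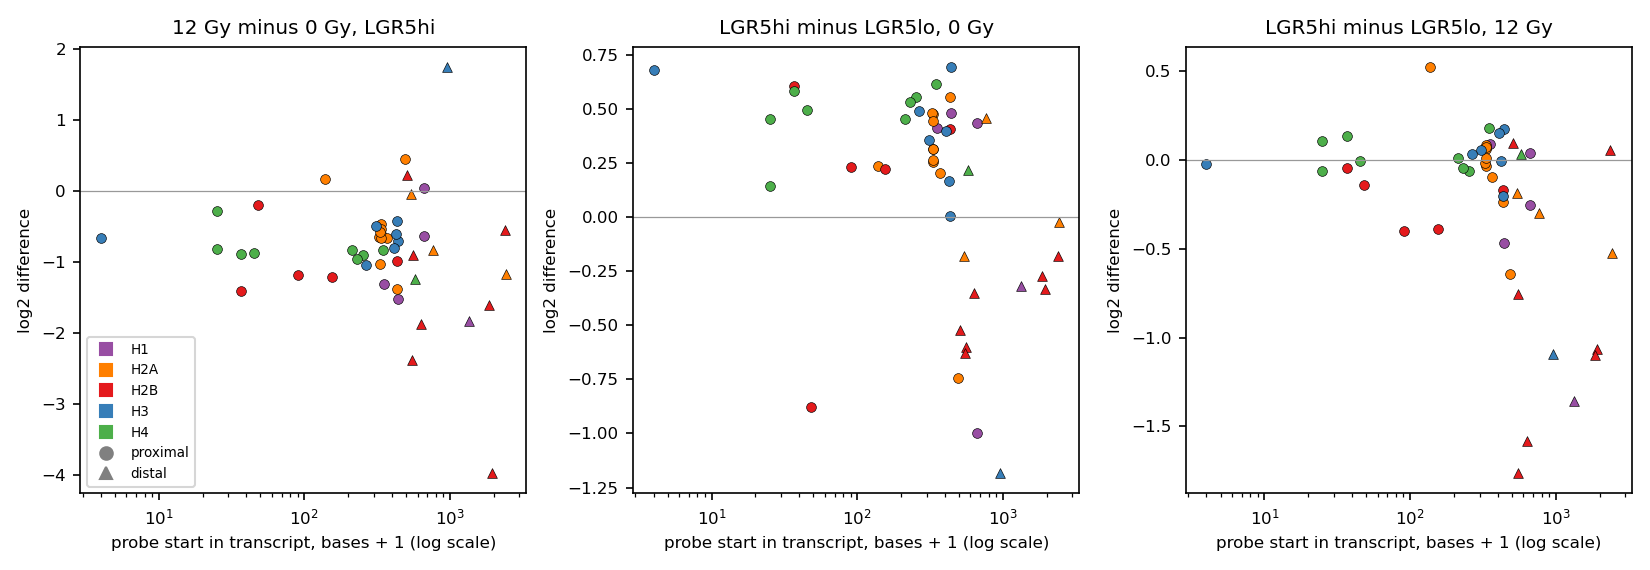
Log2 difference against the probe's start in its transcript (bases plus 1, log scale) for the 48 tested histone genes, coloured by type; circles are proximal and triangles distal probes. In the panels comparing sorts most triangles lie below 0, whereas circles lie above 0 without irradiation and around 0 after 12 Gy.

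Promoter sequences from RefSeq (GRCm38.p6, 250 bases before to 50 after the start) were at hand for 41 of the 49 genes. The octamer ATTTGCAT, searched on both strands, was present in 7 of 14 H2A and 5 of 9 H2B promoters, in none of H1, H3 or H4, and in 1.74% of all 32851 promoters. CCAAT was present in all 34 promoters of H1, H2A, H2B and H3 genes and in 2 of 7 of H4, against 37.4% of all. TATAAA was present in 25 of 41, against 13.6%, and the H1 box AAACACA in 5 of 6 H1 promoters, against 7.18%. The 150 bases before the start of Hist1h2bb and Hist1h1c, each called lower in LGR5hi cells, are shown with these motifs in capitals. Hist1h2bb lies at chr13:23746584-23746733 (plus strand) and Hist1h1c at chr13:23738657-23738806 (plus strand):
Hist1h2bb: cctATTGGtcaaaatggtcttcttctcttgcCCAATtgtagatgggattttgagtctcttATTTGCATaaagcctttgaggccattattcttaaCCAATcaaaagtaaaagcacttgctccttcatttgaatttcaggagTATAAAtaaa
Hist1h1c: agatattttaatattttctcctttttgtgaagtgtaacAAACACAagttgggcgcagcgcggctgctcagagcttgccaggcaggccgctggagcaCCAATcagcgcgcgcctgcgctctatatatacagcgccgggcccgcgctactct
The factors that bind these motifs were not measured here.

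Genes that make, carry or accompany histones were described from lists. Of 22 genes for histone mRNA processing and decay, 2 were lower in LGR5hi cells after irradiation and none was higher, with a median of -0.14. This share, 9.09%, is near the 8.01% called lower over all genes. They were Zfp473 (-1.57 ± 0.24 log2), part of the U7 complex that cuts histone pre-mRNA, and Cdk2 (-0.76 ± 0.16). Slbp (-0.38 ± 0.29) and Npat (-0.09 ± 0.59), which activates histone transcription, were not called, and Npat was dim, above background on 9 of 16 arrays. In LGR5lo cells Zfp473 was the 1 gene called, at -0.92 ± 0.23.

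Of 26 histone chaperones and assembly genes, 5 were lower (19.2%) and 1 was higher (3.85%) in LGR5hi cells (median -0.38). The shares over all genes there were 8.01% and 5.69%. Nasp, which binds H1 and H3-H4, differed by -0.77 ± 0.15, Asf1b, an H3-H4 chaperone, by -0.86 ± 0.17, and the importin Ipo4 by 0.74 ± 0.18. In LGR5lo cells 1 was lower and 1 higher, 3.85% each, near the 2.95% and 4.29% of all genes. Of 14 replication-independent histone variants, 6 were lower and none higher in LGR5hi cells (median -0.57), and 2 were lower in LGR5lo cells. The lower shares, 42.9% and 14.3%, compare with 8.01% and 2.95% of all genes. Cenpa, the centromeric H3, differed by -2.67 ± 0.26 and -1.64 ± 0.25, and H2afx, the H2A variant phosphorylated at DNA breaks, by -1.26 ± 0.25 in LGR5hi cells.

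Of 36 S phase genes, 13 were lower (36.1%) and none higher in LGR5hi cells after irradiation (median -0.56). In LGR5lo cells 2 were lower (5.56%) and 1 was higher (2.78%), with a median of -0.28. Over all genes 8.01% were called lower and 5.69% higher in LGR5hi, and 2.95% and 4.29% in LGR5lo cells. Tk1, thymidine kinase, differed by -1.53 ± 0.26 and E2f8 by -1.42 ± 0.24 in LGR5hi cells. Without irradiation 18 of the 36 were higher and 1 lower in LGR5hi than in LGR5lo cells. The shares over all genes there were 5.49% and 4.78%. Of 16 LGR5 stem cell markers, 7 were lower in LGR5hi and 6 in LGR5lo cells after irradiation, Lgr5 itself by -1.57 ± 0.30 and -1.29 ± 0.28. The part of cell cycle state and of cell content in the histone values was not tested.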

How the data were processed

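RNA of 17 samples was measured on single-colour Agilent arrays of 60-base probes. The deposited scanner files give a linear Cy3 intensity for each spot. Per the file headers, it was detrended and background-subtracted with no scaling between arrays, and coordinates are on mm9. The submitters' processing notes name Agilent Feature Extraction 10.7.3.1. The authors' deposited series table holds log2 values. For replicate 1 of non-irradiated LGR5hi cells the scanner file was damaged as held here. Its values were rebuilt from the series table and the probes' baselines on the 16 other arrays, where the same rebuilding lay within 0.02 log2 for 99.6% of values, and it carries no flags. Control spots and outlier-flagged spots were left out, and each array's log2 processed signal was reduced by its own 75th percentile. Probes well above background on at least 4 of 16 arrays were kept, and the brightest per gene was tested (27637 genes).

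Group means over all arrays were fitted with limma 3.58.1 (lmFit, eBayes) in R 4.3.3, adjusted by Benjamini-Hochberg over all genes, threshold 0.05, and checked on simulated data. Errors beside differences are standard errors. Replicates 1 and 2 of each group lay on slide 1 and replicates 3 and 4 on slide 2. Non-irradiated LGR5lo replicate 5 was alone on slide 3, which no other group shares. Same-numbered LGR5hi and LGR5lo arrays of each arm deviated together (r from 0.12 to 0.46 over genes), so the number was taken as a pairing in the random block. The main fit held no such term, so its tests between sorts and of the difference of the effects are unpaired. Replicate number entered only in alternative settings, the random block and the replicate block. Same-numbered irradiated and non-irradiated arrays of a sort did not deviate together (r from -0.10 to 0.22). The array gene names were matched to RefSeq for 46 of 49 genes. The members and lists were chosen with earlier results of these data known. Within each type, named genes are those with the smallest p (4 for LGR5hi irradiation, 2 for LGR5lo, 2 between sorts at 0 Gy), the 2 brightest, and any called higher. Others were named after their values were seen. Figures used Python 3.11.15 and matplotlib 3.10.9.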

Additional observations from a re-analysis of the deposited data

Results flagged for a closer look

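Over 116 sets of 4 or 5 arrays (29 named genes by group), 3 held an array far from the others of its group, where about 5.8 would be flagged by chance at 1 in 20. Hist1h1c in irradiated LGR5hi replicate 2 was at 0.12, against -0.56 to -0.47 on the other arrays. Hist2h4 in non-irradiated LGR5lo replicate 1 was at 7.48, against 6.58 to 6.80. Hist4h4 in non-irradiated LGR5hi replicate 1, the rebuilt array, was at 5.66, against 5.03 to 5.07.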

How the results depend on the processing

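For irradiation in LGR5hi cells the main count of 28 called members became 17 with arrays centred on their median, 0 on slide 1 alone and 10 on slide 2 alone. Calls over all genes changed too. The main 1572 higher and 2213 lower became 1142 and 1201 with median centring, 170 and 68 on slide 1, and 864 and 663 on slide 2. The member count ran from 19 to 35 when single arrays were left out. The low value came without non-irradiated replicate 1 or irradiated replicate 3 of LGR5hi. The replicate block, with replicate number as a fixed term, gave 34, where 1841 of all genes were called higher and 2623 lower. For irradiation in LGR5lo cells the main count of 6 became 19 with quantile normalization, 2 with median centring, 10 with normexp background correction, 12 with sex as a covariate, 10 with the replicate block, 0 on slide 1 alone, 2 on slide 2 alone and 22 with array weights. The member count ran from 5 to 9 over left-out arrays. Over all genes the main fit called 1185 higher and 814 lower in LGR5lo cells. Quantile normalization gave 1266 and 936, median centring 1050 and 221, and normexp 994 and 644. Sex as a covariate gave 1210 and 940, the replicate block 1364 and 1054, and array weights 1735 and 1695. Slide 1 gave 36 and 11, and slide 2 gave 308 and 134. The difference of the effects stayed at 0 calls under every setting run. For LGR5hi minus LGR5lo at 0 Gy the main count of 1 became 2 with the stricter filter and 4 with the random replicate block. It became 0 on each slide alone and 2 with array weights, and ran from 1 to 13 over left-out arrays. Over all genes the main 2837 calls became 2869 with that filter and 4674 with that block. Slide 1 alone gave 94, slide 2 alone 219 and array weights 2499. At 12 Gy the main count of 4 became 2 with quantile normalization, 0 on each slide alone and 9 with array weights. It ran from 2 to 5 over left-out arrays. Over all genes the main 574 higher and 1152 lower became 723 and 1179 with quantile normalization and 2342 and 2708 with array weights. Slide 1 gave 15 and 319, and slide 2 gave 21 and 95. Hist3h2ba, LGR5hi minus LGR5lo at 12 Gy, reversed to 0.15 under normexp. Single slides hold 2 arrays a group. The causes of the other changes were not tested. Across scalings the median of all genes moved from -0.07 to 0.12 for irradiation in LGR5hi cells and from -0.17 to 0.12 in LGR5lo cells. Relative to it, the histone median lay between -0.51 and -0.26 there and between -0.76 and -0.69 in LGR5hi cells. The number of arrays limits the precision of every value.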
